A study of Mus musculus with 8 samples.

Results

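The 10 genes described here encode subunits and antagonists of the Polycomb repressive complexes, and they were found among the 48709 genes of the count files by matching Ensembl identifiers to the symbols Ezh1, Ezh2, Eed, Suz12, Jarid2, Kdm6b, Cbx2, Cbx8, Bmi1 and Rnf2. All 10 were matched, and all 10 passed the filter on low counts. Their counts came from bulk RNA sequencing of P3 cortex, with P3 meaning postnatal day 3, in 4 dcKO_hGFAP-Cre mice and 4 control mice. In the dcKO_hGFAP-Cre mice both alleles of BAF155 (gene Smarcc1) and of BAF170 (gene Smarcc2) were floxed, and Cre was expressed from a human GFAP promoter that acts in radial glia of the dorsal telencephalon (dTel) before birth (genotype BAF155 fl/fl; BAF170 fl/fl; hGFAP-Cre pos/+). The controls were described in the methods as BAF155 fl/+; BAF170 fl/+; hGFAP-Cre pos/+, so that they too carried Cre and 1 floxed allele of each gene, while the labels name them control or WT. Both groups had the C57BL/6J background. Cortical tissue also holds cells of other origins, such as microglia and endothelium, that this Cre line does not target. The question addressed by the comparison is whether the loss of these BAF scaffolding subunits was accompanied by altered expression of the Polycomb machinery.

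Polycomb proteins keep developmental genes silent and work in 2 main assemblies. Polycomb repressive complex 2 (PRC2) places methyl groups on lysine 27 of histone H3 (H3K27me3), and Polycomb repressive complex 1 (PRC1) binds this mark through chromodomain proteins, ubiquitinates histone H2A and compacts chromatin. BAF (mSWI/SNF) complexes are nucleosome remodellers known to evict Polycomb complexes from chromatin, and in the developing cortex PRC2 is known for timing the switch of progenitors from neuron to glia production.

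Of the 10 genes, Ezh2, Suz12, Cbx8 and Bmi1 were higher in dcKO_hGFAP-Cre cortex, by 20.9% to 27.9%, and none was lower (edgeR's quasi-likelihood test, Benjamini-Hochberg adjusted p under 0.05 over 16525 genes). Across all genes tested, 18.6% were called higher and 18.9% were called lower, so 4 rises among 10 genes stand beside a background in which 37.5% of genes were called in one direction or the other. DESeq2 and limma-voom also called 4 higher and 0 lower. Of all genes they tested, they called 16.2% and 18.5% higher and 17.7% and 19.3% lower. At an unadjusted p under 0.05 edgeR gave the same 4 rises and 1 fall (Kdm6b), and the share of all genes at this unadjusted threshold is not given here. In size, without regard to sign, the log2 fold changes of the 10 genes had a median of 0.22 and a maximum of 0.36, against a median of 0.29 over all genes tested and of 0.56 over all genes called.

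Before the single genes are taken in turn, the state of the libraries has to be given. Total counts ranged from 21126713 to 32110285 per library, and the 10 genes had between 284 and 3983 counts each in a library, with the fewest for Cbx2, Cbx8 and Eed, where counting error weighs most. The deleted genes followed the labels: Smarcc1 was at 159 ± 11.2 CPM (reads of a gene scaled to a common library size after TMM normalization; SD, n = 4) in control and 81.2 ± 5.9 CPM in dcKO_hGFAP-Cre, and Smarcc2 was at 483 ± 14.7 and 283 ± 28.2 CPM, with no overlap between groups for either. The dcKO_hGFAP-Cre replicates 1 and 2 stood apart by the choroid plexus marker Ttr, at 584 and 1128 CPM against 15.8 and 1.72 CPM in replicates 3 and 4. Folr1 (5.51 and 9.58 against 0.375 and 0.0906 CPM), Clic6 (10.8 and 18.7 against 1.98 and 0.634 CPM) and Kcnj13 (0.983 and 1.53 against 0.171 and 0.0604 CPM) went the same way. Kl did not, as its 1.24 and 1.1 CPM in replicates 1 and 2 lay within the control range of 0.782 to 1.92 CPM. Of 4 such markers tested, 1 (Clic6) was called higher. Without dcKO_hGFAP-Cre replicates 1 and 2, a choice made after seeing the data, 0 of the 10 genes passed the adjusted threshold in edgeR. At that threshold 8.06% of all genes tested were called higher and 9.18% lower (17.2% in all). The log2 fold changes of Ezh2, Suz12, Cbx8 and Bmi1 were then 0.34, 0.31, 0.32 and 0.32. These 4 rises had an unadjusted p under 0.05 in edgeR, and the share of all genes at this unadjusted threshold is not given here.

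Promoter sequences are shown for the 4 genes that rose, since Ezh2 and Suz12 held a match to an E2F motif there, whereas Cbx8 and Bmi1 rose without one. E2F proteins are transcription factors that switch on genes of the cell cycle. The sequences are from RefSeq, with GRCm38.p6 coordinates (the build of mm10), and each runs 5′ to 3′ on the strand of the gene from 250 bases before the annotated start to 20 bases after it. Capitals mark the match.
Ezh2, chr6:47595011-47595280, minus strand: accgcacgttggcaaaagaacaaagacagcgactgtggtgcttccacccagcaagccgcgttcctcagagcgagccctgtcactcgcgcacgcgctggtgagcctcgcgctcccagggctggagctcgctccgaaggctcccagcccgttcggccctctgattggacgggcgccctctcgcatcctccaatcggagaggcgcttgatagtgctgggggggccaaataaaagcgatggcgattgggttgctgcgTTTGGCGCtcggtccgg
Suz12, chr11:79992856-79993125, plus strand: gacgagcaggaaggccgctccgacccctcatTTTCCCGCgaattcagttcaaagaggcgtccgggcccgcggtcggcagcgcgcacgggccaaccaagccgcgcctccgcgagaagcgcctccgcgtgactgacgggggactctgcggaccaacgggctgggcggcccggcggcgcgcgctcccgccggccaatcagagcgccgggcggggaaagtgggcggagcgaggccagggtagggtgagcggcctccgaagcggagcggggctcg
Cbx8, chr11:119040894-119041163, minus strand: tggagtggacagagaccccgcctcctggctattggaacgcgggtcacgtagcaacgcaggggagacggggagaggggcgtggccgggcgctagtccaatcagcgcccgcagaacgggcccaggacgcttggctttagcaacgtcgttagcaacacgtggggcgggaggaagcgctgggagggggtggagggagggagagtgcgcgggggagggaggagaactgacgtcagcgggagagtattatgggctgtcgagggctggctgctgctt
Bmi1, chr2:18676768-18677037, plus strand: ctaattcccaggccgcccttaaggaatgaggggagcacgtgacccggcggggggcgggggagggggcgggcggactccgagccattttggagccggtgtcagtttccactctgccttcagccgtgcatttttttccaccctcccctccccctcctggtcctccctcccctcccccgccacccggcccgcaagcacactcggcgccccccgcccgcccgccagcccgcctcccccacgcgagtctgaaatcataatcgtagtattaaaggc

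The letters searched were TTTGGCGC, TTTCCCGC, TTTGCCGC and TTTCGCGC on both strands, in windows of 300 bases (250 before the start and 50 after). Ezh2 held TTTGGCGC from base 4 after the start, and Suz12 held TTTCCCGC from 219 bases before it. A promoter was given for 8 of the 10 genes, all but Kdm6b and Cbx2, and the other 6 of these 8 had no match. Among all 32851 promoter windows, 2.26% held 1 of the 4 words, and such a match describes the letters and not a bound site. These 8 genes had 9 promoter windows, as Jarid2 had 2. All 9 held more CpG dinucleotides than the median window, with 17 in the window of Eed and 41 in that of Suz12 at the extremes and 24 and 23 in those of Jarid2, against a median of 7 over all windows. Each of the 4 words itself holds a CpG, so the 2.26% over all windows is not the share among windows as rich in CpG.

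PRC2 contains the catalytic subunit EZH2 or EZH1, the scaffold SUZ12 and the H3K27me3-binding subunit EED. Ezh2 encodes the methyltransferase that prevails in dividing cells (ENSMUSG00000029687, mm10 chromosome 6, 47530139 to 47595341). It was measured at 28.2, 32.8, 33.2 and 34.5 CPM in control replicates 1 to 4 and at 44.7, 36.1, 37.7 and 43.7 CPM in dcKO_hGFAP-Cre replicates 1 to 4. Every mutant lay above every control. Ezh2 had a log2 fold change of 0.33 with an SE of 0.10 and an adjusted p of 0.0201 (edgeR), and it missed the threshold when control replicate 1 (adjusted p = 0.052) or dcKO_hGFAP-Cre replicate 1 (adjusted p = 0.0714) was left out.

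Ezh1 encodes the paralog of EZH2, a weaker methyltransferase that persists in cells that have left the cycle (ENSMUSG00000006920, mm10 chromosome 11, 101191115 to 101226463). Its values were 36.4, 41.2, 38.7 and 39.4 CPM in control and 47.4, 38.6, 39.7 and 52.3 CPM in dcKO_hGFAP-Cre. Mutants 1 and 4 lay above all controls and the other two lay among them. The log2 fold change was 0.20 (SE 0.11, 95% interval -0.03 to 0.42, adjusted p = 0.161 by edgeR), so these samples separated Ezh1 neither from no change nor from a rise of the size estimated for Ezh2.

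The same comparison within each library sets the 2 genes against each other without any scaling of libraries. Counts were not corrected here for exon length (7440 bases for Ezh1, 6678 for Ezh2), so a log2 ratio of 0 does not mark equal levels. The log2 ratio of Ezh2 to Ezh1 was -0.37, -0.33, -0.22 and -0.19 in control and -0.08, -0.10, -0.07 and -0.26 in dcKO_hGFAP-Cre. Mutant 4 lay among the controls, and the other 3 mutants had a higher ratio than any control. The means differed by 0.15 (SE 0.06, exact two-sided permutation test p = 0.0857, adjusted p = 0.107 over 5 ratios).

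Suz12 was at 49.1, 55.5, 52.6 and 52.8 CPM in control and at 66.1, 58.0, 60.2 and 69.4 CPM in dcKO_hGFAP-Cre (ENSMUSG00000017548, mm10 chromosome 11, 79993106 to 80034123). The groups did not overlap, and Suz12 differed by 0.27 on the log2 scale (SE 0.08, adjusted p = 0.022 by edgeR). This was the least stable of the 4 calls: the adjusted p went above 0.05 without control replicate 1, 3 or 4 or dcKO_hGFAP-Cre replicate 1, to 0.0727 at most.

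Eed was at 17.4, 18.1, 16.9 and 17.0 CPM in control and at 18.0, 21.6, 19.9 and 17.1 CPM in dcKO_hGFAP-Cre (ENSMUSG00000030619, mm10 chromosome 7, 89954654 to 89980983). Mutants 2 and 3 were the highest of the 8 libraries and mutants 1 and 4 lay within the control range. The log2 fold change of 0.14 (SE 0.10, 95% interval -0.08 to 0.37) did not pass the test (adjusted p = 0.3 by edgeR). Jarid2, an accessory subunit that helps PRC2 to reach chromatin, was at 68.5, 62.3, 74.2 and 66.4 CPM in control and 79.8, 70.1, 66.7 and 78.4 CPM in dcKO_hGFAP-Cre (ENSMUSG00000038518, mm10 chromosome 13, 44729474 to 44921643). The 2 groups overlapped, and the log2 fold change was 0.12 (SE 0.09, 95% interval -0.07 to 0.31, adjusted p = 0.299).

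**Figure D1:**
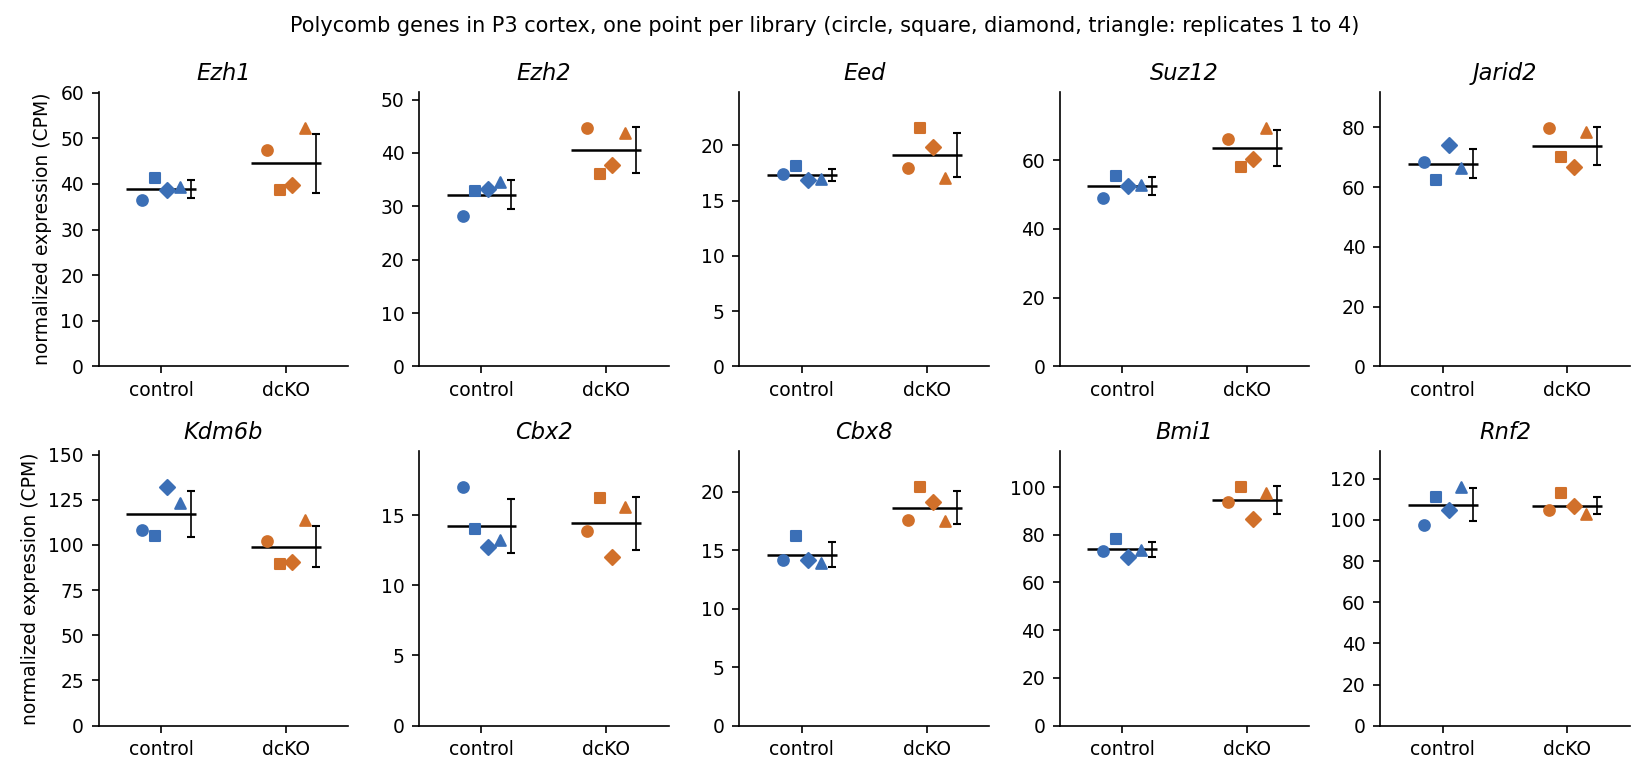
TMM-normalized CPM of the 10 genes in each of the 4 control and 4 dcKO_hGFAP-Cre libraries, with 1 panel for each gene and bars for the group mean and SD. All 4 mutants lie above all 4 controls for Ezh2, Suz12, Cbx8 and Bmi1, and the groups overlap in the other 6 panels.

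Kdm6b encodes an H3K27 demethylase that removes the mark placed by PRC2 (ENSMUSG00000018476, mm10 chromosome 11, 69398508 to 69413675). It was at 108, 105, 132 and 123 CPM in control and at 102, 89.4, 90.8 and 114 CPM in dcKO_hGFAP-Cre. Mutants 1 to 3 lay below every control, and mutant 4 lay between the lower and the higher pair of controls. The difference on the log2 scale was -0.24 (SE 0.10, 95% interval -0.46 to -0.02), with an adjusted p of 0.0812 (edgeR) that fell to 0.019 when dcKO_hGFAP-Cre replicate 4 was left out.

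Kdm6a, the X-linked paralog with the same activity, had values of 35.8, 35.9, 31.8 and 39.6 CPM in control and 40.4, 38.1, 47.5 and 40.3 CPM in dcKO_hGFAP-Cre. Only mutant 2 lay inside the control range, and the log2 fold change was 0.22 (SE 0.10, adjusted p = 0.0989 by edgeR). The highest library of each group, control 4 and mutant 3, was also the one with high Xist, the RNA of the inactive X chromosome (629.9 and 1065 CPM against at most 5.8 CPM elsewhere), and the part of this in the Kdm6a values was not tested.

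The log2 ratio of Kdm6b to Kdm6a within each library was 1.60, 1.54, 2.05 and 1.63 in control and 1.34, 1.23, 0.93 and 1.5 in dcKO_hGFAP-Cre. Every mutant had a lower ratio than every control. The difference of -0.46 (SE 0.17) had p = 0.0286 by the exact two-sided permutation test, the smallest p that 4 samples against 4 allow, and 0.0714 after adjustment over 5 ratios, which misses the threshold.

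PRC1 is built on a RING protein, RING1B (gene Rnf2) or RING1A (gene Ring1), paired with a PCGF protein such as BMI1, and canonical forms also hold a CBX protein that reads H3K27me3. Bmi1, known for sustaining the self-renewal of neural stem cells, was at 73.3, 78.1, 70.7 and 73.6 CPM in control and at 93.9, 100.0, 86.5 and 97.7 CPM in dcKO_hGFAP-Cre (ENSMUSG00000026739, mm10 chromosome 2, 18677018 to 18686629). The 2 groups were set well apart, with the lowest mutant above the highest control. The log2 fold change of 0.36 (SE 0.07, adjusted p = 0.00297 by edgeR) was the largest of the 10 genes. It stayed past the threshold in all 8 fits that left out 1 library, where it was 0.32 to 0.39.

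Pcgf2 encodes MEL18, the closest paralog of BMI1. Its values overlapped, with 123, 92.2, 104 and 101 CPM in control and 121, 129, 88.4 and 127 CPM in dcKO_hGFAP-Cre (log2 fold change 0.15, SE 0.12, adjusted p = 0.369 by edgeR). The log2 ratio of Bmi1 to Pcgf2 was -0.75, -0.24, -0.56 and -0.45 in control and -0.36, -0.37, -0.03 and -0.38 in dcKO_hGFAP-Cre. These ranges overlapped, and the difference of 0.21 (SE 0.14) had p = 0.2 by the exact permutation test.

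Rnf2, the main catalytic subunit of PRC1, was at 97.5, 111, 105 and 116 CPM in control and at 105, 113, 107 and 103 CPM in dcKO_hGFAP-Cre (ENSMUSG00000026484, mm10 chromosome 1, 151458004 to 151500955). All 4 mutants lay inside the control range. Rnf2 had a log2 fold change of -0.01 with an SE of 0.08, and its 95% interval of -0.17 to 0.16 leaves out a rise as large as that estimated for Bmi1.

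Its paralog Ring1 did rise, from 22.2, 15.6, 19.2 and 20.4 CPM in control to 28.4, 29.5, 27.9 and 28.1 CPM in dcKO_hGFAP-Cre (log2 fold change 0.56, SE 0.11, adjusted p = 0.00203 by edgeR). The mutants were close to each other and all above the controls. The log2 ratio of Rnf2 to Ring1 was 2.13, 2.82, 2.45 and 2.51 in control and 1.88, 1.93, 1.93 and 1.88 in dcKO_hGFAP-Cre. Again the groups did not overlap, and the difference of -0.57 (SE 0.14) had the smallest possible p of 0.0286 by the exact permutation test and 0.0714 after adjustment.

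**Figure D2:**
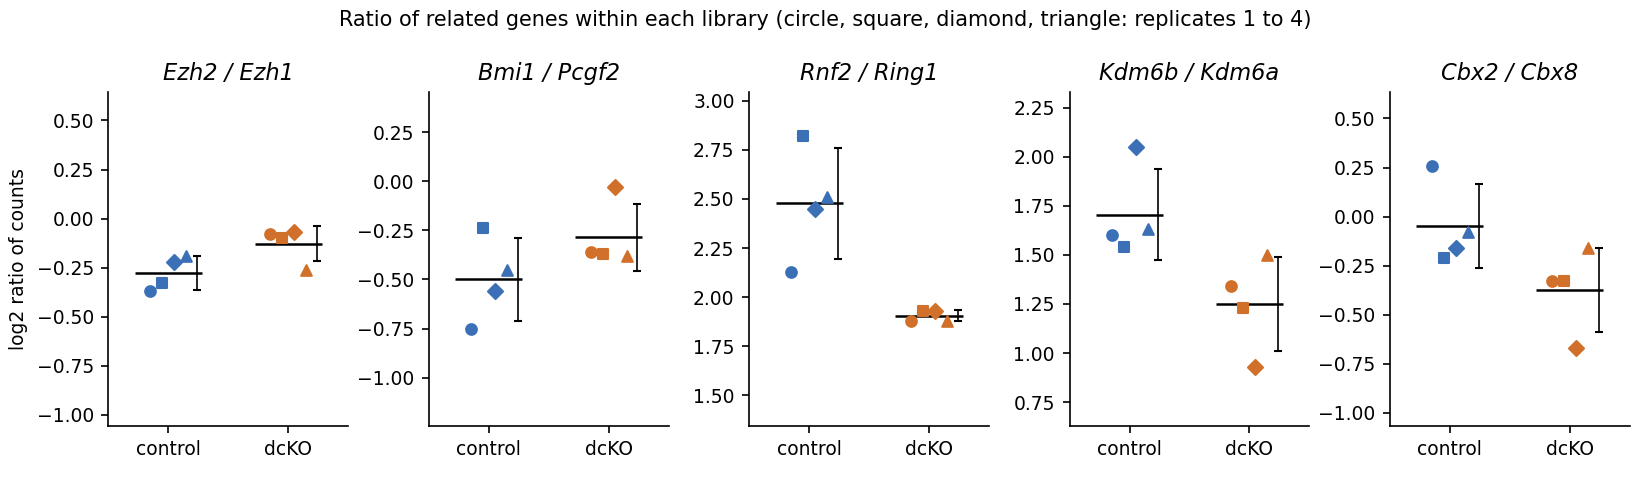
Log2 ratio of the CPM of 5 gene pairs within each library, for 4 control and 4 dcKO_hGFAP-Cre mice, with bars for the mean and SD. The ratios of Rnf2 to Ring1 and of Kdm6b to Kdm6a are lower in all 4 mutants than in any control, while the other 3 pairs overlap.

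Cbx8 and Cbx2 encode chromodomain subunits of canonical PRC1 and lie next to each other on chromosome 11. Cbx8 was at 14.2, 16.2, 14.2 and 13.9 CPM in control and at 17.6, 20.4, 19.1 and 17.5 CPM in dcKO_hGFAP-Cre (ENSMUSG00000025578, mm10 chromosome 11, 119036305 to 119040969). The groups did not overlap, and control 2 stood above the other 3 controls. The log2 fold change was 0.35 (SE 0.10, adjusted p = 0.0183 by edgeR), and the adjusted p rose to between 0.0578 and 0.0605 when control replicate 3 or 4 or dcKO_hGFAP-Cre replicate 2 was left out.

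Cbx2 was at 17.0, 14.0, 12.7 and 13.2 CPM in control and at 13.9, 16.2, 12 and 15.6 CPM in dcKO_hGFAP-Cre (ENSMUSG00000025577, mm10 chromosome 11, 119022962 to 119031270). The values of the groups were intermingled, and the log2 fold change was 0.02 (SE 0.13, 95% interval -0.26 to 0.31, adjusted p = 0.903). The upper end of this interval lies just under the 0.35 estimated for Cbx8. The log2 ratio of Cbx2 to Cbx8 was 0.26, -0.21, -0.16 and -0.08 in control and -0.33, -0.33, -0.67 and -0.16 in dcKO_hGFAP-Cre, a difference of -0.33 (SE 0.15, exact permutation p = 0.0571, adjusted p = 0.0952). Mutant 4 lay among the controls in this ratio and the other 3 mutants lay below them.

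Counted together, 4 of the 10 genes had all mutants above all controls and none had all mutants below, where 16.7% and 17.7% of all genes tested did so (34.4% together). The log2 fold change was above 0 for 8 of the 10 genes, and the median was 0.17, against 0.02 over all genes tested. This median depends on the scaling: with library totals in place of TMM, the median over all genes moved by 0.12, Ezh1 (0.32) and Jarid2 (0.24) also passed the threshold, and 6 of the 10 genes were called higher. The split over all genes was then 4584 higher (27.7%) and 2102 lower (12.7%, together 40.5%), in place of 3074 and 3128.

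**Figure D3:**
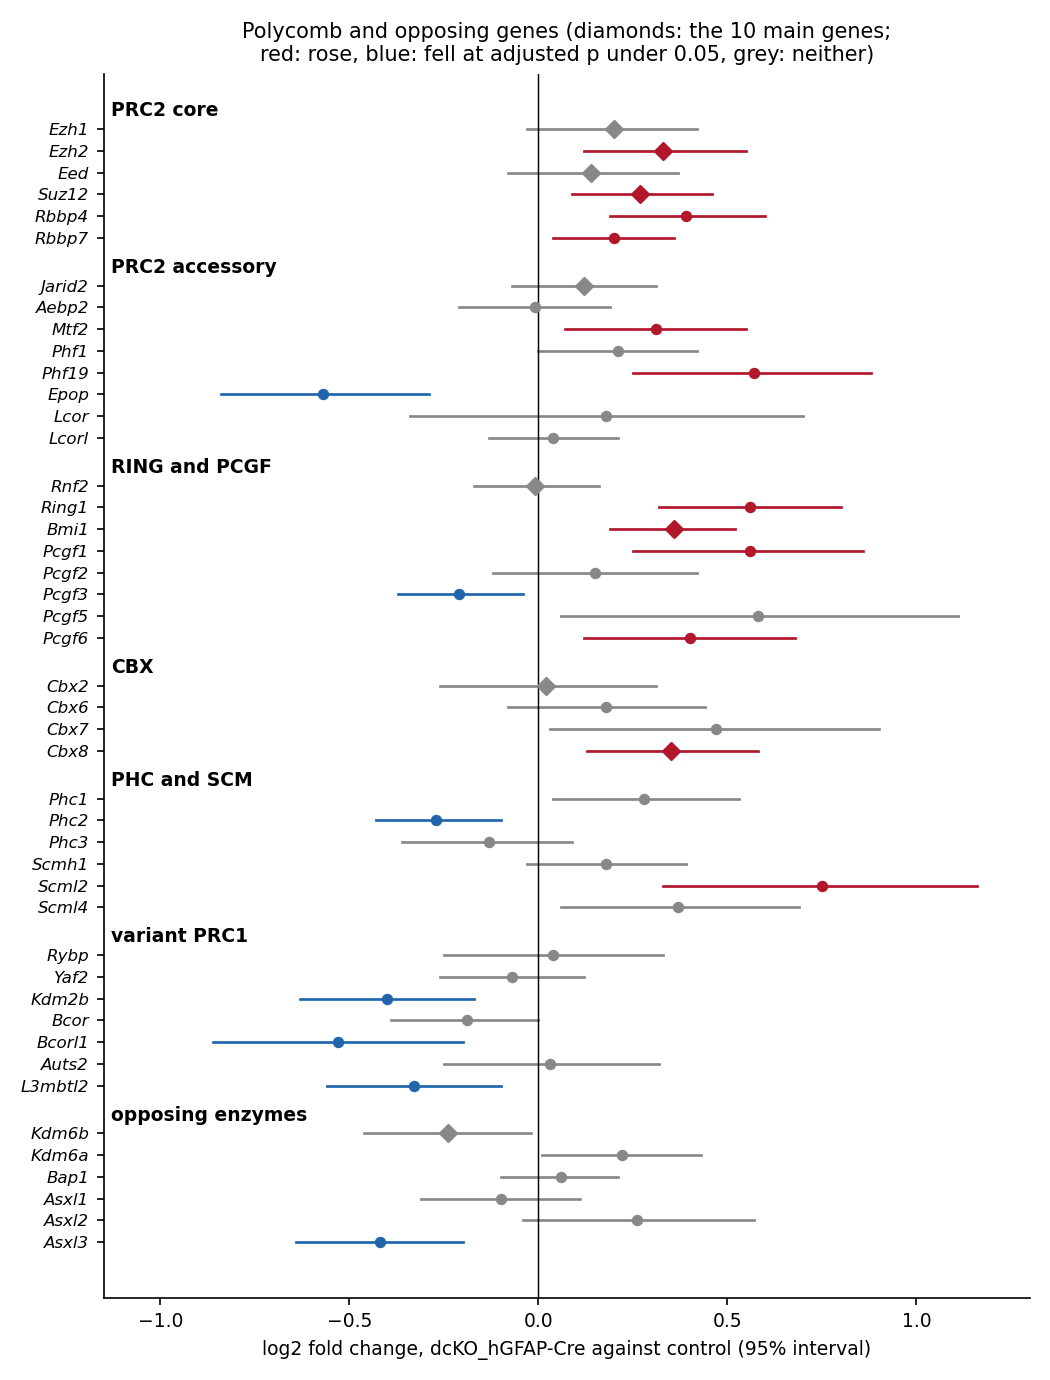
Log2 fold change (dcKO_hGFAP-Cre against control, edgeR) with its 95% interval for the 10 genes and for 35 other Polycomb genes tested, with called genes marked. Among the other genes the called fold changes run from -0.57 for Epop to 0.75 for Scml2.

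**Figure D4:**
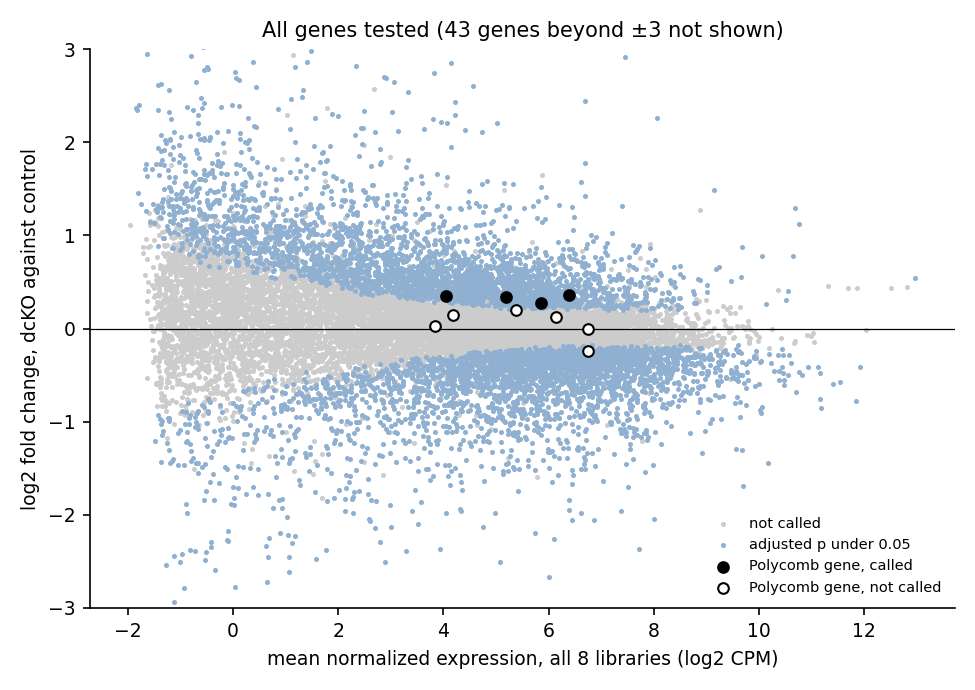
Log2 fold change against mean expression (log2 CPM) for the 16525 genes tested, with the 10 Polycomb genes marked and 43 genes beyond 3 in either direction not drawn. The 10 genes lie close to 0, between -0.24 for Kdm6b and 0.36 for Bmi1.

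The levels of the 10 genes can be compared with each other only per length, here as CPM per kilobase of annotated exon. In control cortex Rnf2 had the highest level (26 ± 1.93 CPM per kb, SD, n = 4), then Bmi1 (18.6 ± 0.776), Kdm6b (16.8 ± 1.85), Suz12 (10.6 ± 0.527) and Jarid2 (6.98 ± 0.51). Below these came Ezh1 (5.23 ± 0.267), Ezh2 (4.82 ± 0.412), Eed (4.53 ± 0.136), Cbx8 (3.98 ± 0.292) and Cbx2 (3.34 ± 0.457). The strand setting of the counting is not given in the sources used here. Of the exon bases of Ezh2, Eed, Suz12, Kdm6b and Rnf2, 2.6% to 6.8% overlap a gene on the opposite strand. Reads of these stretches cannot be assigned with certainty. The same limit holds for further Polycomb genes described below, where L3mbtl2 shared 17.2% of its exon bases with Chadl, Rbbp4 9.1% with Gm26722 and Phf1 39.3% with Cuta. Neighbours whose ranges overlapped were Bmi1 with Kdm6b, Ezh1 with Ezh2, Ezh2 with Eed, and Cbx8 with Cbx2, although Ezh1 was above Ezh2 in each of the 4 control libraries. In dcKO_hGFAP-Cre cortex Rnf2 stayed at 25.9 ± 1.01 CPM per kb and Bmi1, at 23.8 ± 1.48, overlapped with it. Rnf2 was still above Bmi1 in each of the 4 mutant libraries. Ezh2 (6.07 ± 0.64) and Ezh1 (5.98 ± 0.877) had overlapping ranges there, with Ezh2 above Ezh1 in 3 of 4 libraries.

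Other genes of the 2 complexes were read from the same fit. Of 9 further PRC2 genes tested, 4 rose, 1 fell and 4 did not pass, where 18.6% of all genes tested were called higher and 18.9% lower. Rbbp4, whose product is a histone-binding subunit that PRC2 shares with other complexes, was at 186, 183, 199 and 221 CPM in control and 236, 284, 283 and 233 CPM in dcKO_hGFAP-Cre (log2 fold change 0.39, SE 0.09, adjusted p = 0.00594 by edgeR). All mutants lay above all controls. Phf19, which encodes a Polycomb-like protein that binds methylated H3K36, had 4.28, 3.65, 3.49 and 3.85 CPM in control and 5.90, 5.34, 5.22 and 6.13 CPM in dcKO_hGFAP-Cre, again without overlap (0.57, SE 0.14, adjusted p = 0.00888). Rbbp7 (0.20, adjusted p = 0.047) and the Polycomb-like Mtf2 (0.31, adjusted p = 0.0429) lay close to the threshold.

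Epop, whose product links PRC2 to elongin BC, was the PRC2 gene that fell, from 11.3, 10.7, 11.7 and 11 CPM in control to 7.23, 8.98, 7.30 and 6.67 CPM in dcKO_hGFAP-Cre (log2 fold change -0.57, SE 0.13, adjusted p = 0.00398 by edgeR). No mutant reached the control range. Aebp2 (-0.01), Phf1 (0.21), Lcor (0.18) and Lcorl (0.04) had adjusted p values of 0.942, 0.109, 0.59 and 0.699, and Ezhip had 0 to 3 counts in a library and was not tested.

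Of 22 further PRC1 genes, 4 rose, 5 fell and 13 did not pass, so that 40.9% were called, close to the 37.5% over all genes tested. Besides Ring1, the genes that rose were Pcgf1 (log2 fold change 0.56, adjusted p = 0.00824 by edgeR) and Pcgf6 (0.40, adjusted p = 0.0266), which encode PCGF proteins of variant PRC1, and Scml2 (0.75, adjusted p = 0.00908), a relative of Drosophila Scm. In all of these the mutant values lay above the controls, except that the lowest mutant of Scml2, 6.75 CPM, lay below control 1 at 7.55 CPM.

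The PRC1 genes that fell included Kdm2b, whose product brings variant PRC1 to CpG islands. It was at 117, 111, 127 and 129 CPM in control and 93.4, 82.0, 79.9 and 111 CPM in dcKO_hGFAP-Cre (log2 fold change -0.40, SE 0.10, adjusted p = 0.0103 by edgeR), with the highest mutant at the level of the lowest control. Phc2 (-0.27, adjusted p = 0.0157), Bcorl1 (-0.53, adjusted p = 0.0173), L3mbtl2 (-0.33, adjusted p = 0.0259) and Pcgf3 (-0.21, adjusted p = 0.0475) also fell, of which Phc2 (-0.15, adjusted p = 0.127), L3mbtl2 (-0.21, adjusted p = 0.114) and Pcgf3 (-0.08) lost the call with library totals. The CBX paralogs Cbx6 (0.18, adjusted p = 0.263) and Cbx7 (0.47, adjusted p = 0.0848) were not called.

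Among enzymes that oppose Polycomb marks, Asxl3, a partner of the H2A deubiquitinase BAP1, fell from 76.3, 81.4, 74.7 and 66.7 CPM in control to 51.8, 49.4, 55.7 and 65.9 CPM in dcKO_hGFAP-Cre (log2 fold change -0.42, SE 0.10, adjusted p = 0.00647 by edgeR). The highest mutant lay just under the lowest control. Bap1 itself (0.06, adjusted p = 0.552), Asxl1 (-0.10, adjusted p = 0.424), Asxl2 (0.26, adjusted p = 0.156) and Kdm6a were not called. Over all 36 further Polycomb genes tested, 8 rose, 7 fell and 21 did not pass. This is 41.7% called, against 37.5% of all genes, and the median log2 fold change was 0.16, against 0.02 over all genes tested. With library totals in place of TMM, 17 of the 36 were called higher and 4 lower.

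Genes that Polycomb silences in the forebrain were read as counts, since all but 1 of 41 fell under the filter. These were the 39 Hox genes, which pattern the body axis behind the forebrain, and the cell cycle inhibitors Cdkn2a and Cdkn2b. The Hox genes together had 2, 0, 4 and 3 counts in control and 30, 28, 33 and 34 counts in dcKO_hGFAP-Cre libraries, that is at most 0.133 CPM in control and 1.03 to 1.28 CPM in dcKO_hGFAP-Cre. Every mutant library had more than every control, and these are sums near the floor of detection, over genes that did not enter the test. The mutant libraries with high Ttr (30 and 28 counts) and those without (33 and 34 counts) were alike in this. Without the filter on low counts, edgeR called 5 Hox genes higher, where 10.2% of all 30608 genes then tested were called higher. DESeq2 called 1, Hoxd8, where 16.2% of all genes it tested were called higher.

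Of the 39 Hox genes, 31 had no count in any control, 25 had a count in some mutant library, and 11 had none in all 8 libraries. Hoxd8 had 0, 0, 2 and 0 counts in control and 8, 7, 11 and 9 in dcKO_hGFAP-Cre. Hoxd9, Hoxa5 and Hoxb8 also had more counts in every mutant than in any control, and these 4 genes were named after their values were seen. Cdkn2b passed the filter and was not called (log2 fold change -0.13, SE 0.28, adjusted p = 0.747 by edgeR), and Cdkn2a had 2, 5, 11 and 3 counts in control and 10, 8, 8 and 9 in dcKO_hGFAP-Cre, which overlap.

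**Figure D5:**
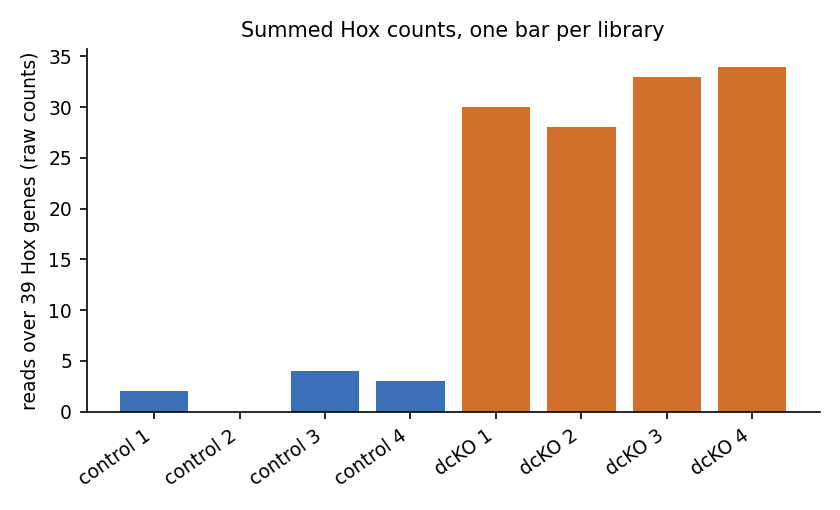
Raw counts summed over the 39 Hox genes in each of the 8 libraries. The 4 control bars reach at most 4 counts and the 4 dcKO_hGFAP-Cre bars lie between 28 and 34 counts.

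The cortex was sequenced in bulk, so fewer cells of a type and less RNA per cell cannot be told apart, and markers of several cell types moved with the groups. The counts of markers called stand beside 18.6% of all genes tested called higher and 18.9% lower (37.5% in all). Of 12 proliferation markers, 4 rose and none fell, which is 33.3% called and no more than over all genes. Their summed level overlapped between groups (240.4 to 282 CPM in control, 264 to 307 CPM in dcKO_hGFAP-Cre). Of 4 intermediate progenitor markers tested, 3 rose (15.8 to 21.4 and 28.8 to 40.4 CPM). Neurog1 had too few counts to be tested, with 0 in every control and 3, 0, 2 and 0 counts in dcKO_hGFAP-Cre. Of 9 radial glia markers, 4 rose and 1 fell, and their summed level overlapped between groups (1519.8 to 1562 and 1307 to 2377 CPM). Of 10 markers of postmitotic neurons, 9 fell and none rose (12151 to 13234 and 8820.4 to 9634 CPM), and 6 of 8 markers of cortical projection neurons fell (1696 to 1862 and 880.3 to 1064 CPM). Markers of cortex were thus present in all 8 libraries, at a lower level in the mutants.

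Markers of striatal neurons (5 of 8 rose, 118 to 168 and 359 to 672 CPM), interneurons (6 of 7 rose, 585 to 601 and 894 to 974 CPM) and microglia (8 of 10 rose, 109 to 143 and 218 to 278 CPM) were higher in every mutant library. Markers of oligodendrocyte precursors (6 of 6 fell, 422 to 456 and 234 to 312 CPM) and endothelium (5 of 7 fell, 252 to 305 and 132 to 234 CPM) were lower. The share of mitochondrial counts was 2.06% to 3.23% in control and 3.57% to 5.47% in dcKO_hGFAP-Cre. The part of these differences in the levels of the Polycomb genes was not tested.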

How the data were processed

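Bulk RNA of P3 cortex was analysed for 4 dcKO_hGFAP-Cre and 4 control mice. The authors prepared total RNA with TRIZOL, made TruSeq libraries, mapped reads to the mm10 genome and deposited the raw featureCounts gene counts, 1 file per mouse. The aligner, annotation, strand setting and treatment of reads matching several genes are not given in the sources used here. Totals were 21126713 to 32110285 counts per library. No pair of libraries agreed within sampling noise, and nothing says that the mice came from separate litters, so p-values measure the spread between these samples.

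Symbols, coordinates and exon lengths were taken from GENCODE's annotation of the same build for 48349 of 48709 identifiers. Counts were tested with the quasi-likelihood test of edgeR 4.0.16 in R 4.3.3 with TMM normalization, the edgeR filter on low counts (minimum count 10), no block and no covariates, with Benjamini-Hochberg adjustment over 16525 genes and a threshold of 0.05. CPM are TMM-normalized. Ratios used a prior count of 0.5 and an exact two-sided permutation test, adjusted over 5 ratios. Alternatives were DESeq2 1.42.0, its size factors in edgeR, limma-voom (limma 3.58.1), library totals, no filter, a filter of 10 counts in each library, a block for the replicate number or the lane, and each library left out. The tests were tried first on simulated counts, 4 libraries against 4, with 200 genes changed 2-fold. Of these genes edgeR recovered 73%, limma-voom 70.5% and DESeq2 76.5%. False calls made up 5.19%, 6.62% and 12.6% of their calls. Changes as small as those of the 10 genes were not simulated.

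The 10 genes, the other lists and the motifs were chosen with earlier results of these data known. Named are the 10 genes, their paralogs, opposing enzymes and, of the other PRC2 and PRC1 genes, up to 5 that rose and 5 that fell with the smallest p. A result that this rule names is not reported here. Lanes 5, 6 and 7 each held both groups.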

Additional observations from a re-analysis of the deposited data

Results flagged for a closer look

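In 76 groups of 4 values, 6 had a highest or lowest library whose distance to its nearest neighbour took up more of the group's range than Dixon's 95% limit for 4 samples, where about 3.8 are flagged by chance (1 in 20 groups). Control replicate 2 was the highest of its group for Cbx8, at 16.2 CPM (gap 0.856 of the range). This did not bring it into the range of the mutants. The log2 ratio of Ezh2 to Ezh1 was lowest in dcKO_hGFAP-Cre replicate 4, at -0.26 (gap 0.865), and that of Bmi1 to Pcgf2 was highest in dcKO_hGFAP-Cre replicate 3, at -0.03 (gap 0.936). Of the other Polycomb genes, Mtf2 was lowest in dcKO_hGFAP-Cre replicate 3 (53.9 CPM), Pcgf3 was lowest in control replicate 1 (119.7 CPM) and Cbx6 was highest in dcKO_hGFAP-Cre replicate 4 (179.9 CPM).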

How the results depend on the processing

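No result changed sign past its threshold under any alternative. The number of the 10 genes called higher was 4 with edgeR and TMM, 6 with library totals, 3 with the replicate number as a block and 2 to 4 when 1 library was left out. It was 2 without control replicate 1, 3 or 4 or dcKO_hGFAP-Cre replicate 1, where 18.8%, 13.3%, 14.8% and 14.2% of all genes tested were called higher. The number called lower was 0, or 1 without dcKO_hGFAP-Cre replicate 4 (Kdm6b, -0.30), where 19% of all genes were called lower. Over the fits with 1 library left out, 13.3% to 20.1% of all genes tested were called higher and 14.3% to 19.8% lower. With the replicate block 17.7% were called higher. For the 36 other Polycomb genes, 8 higher calls became 17 with library totals and 5 to 11 with 1 library left out, and 7 lower calls became 4 and 3 to 7. Among these, Rbbp7, Mtf2 and Pcgf3 lost their calls most often. Without dcKO_hGFAP-Cre replicates 1 and 2, a choice made after seeing the data, 0 of the 10 genes were called by edgeR (4 at an unadjusted p under 0.05), 2 and 1 of the other genes were called higher and lower, and 1388 and 1581 of all genes. Of the Hox genes, 0 were called under the edgeR filter, which none of them passed. DESeq2 called 1 (Hoxd8), where it called 16.2% of all genes higher, and edgeR without a filter called 5, where it called 10.2% higher. The cause of these changes was not tested. No pairing of the mice by replicate number was seen, the correlations of same-numbered mice being 0.18, -0.12, 0.18 and -0.08. Those of differently numbered mice ran from -0.33 to 0.32. So few correlations cannot exclude a pairing, and same-numbered mice shared a lane. With the replicate block, Suz12 (adjusted p = 0.051) lost its call, and 2932 genes were called higher and 2982 lower.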
